A study of Homo sapiens with 6 samples.

Results

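AXIN2, NKD1, RNF43, LEF1, TCF7, SP5 and CCND1 are genes that sit downstream of canonical Wnt signalling, most of them as brakes or effectors of the pathway itself. They were taken by name, with earlier results of these data known. Of these 7 genes, 6 had a feature on the array that the platform annotation ties to their symbol. In all, 14884 genes were measured. TCF7 has no named feature here and was not analysed. Each of the 6 has a single named feature, so no choice between features was needed. Expression was measured in spheroids of SW620, a colorectal cancer line from a lymph node metastasis, and of SW480, a colorectal cancer line from a primary tumour. Both lines are known to come from the same patient and to carry a truncated APC protein. Each line was grown without serum, with growth factors, as floating spheres, a culture meant to enrich tumour-initiating cells. No further treatment or allele is labelled, and 3 arrays were run per line, which the series describes as technical replicates of the same condition. The p-values below therefore measure the spread between such arrays and not between separate cultures. Each line is 1 culture model, so a difference between them is a difference between these lines.

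In canonical Wnt signalling, a cytoplasmic complex built on AXIN and APC marks beta-catenin for destruction. When Wnt proteins engage Frizzled and LRP receptors, or when APC is truncated as in most colorectal tumours, beta-catenin escapes, enters the nucleus and switches on genes through DNA-bound TCF/LEF factors. Several of these genes encode inhibitors that act back on the pathway at the receptor, in the cytoplasm or at the DNA. Because the pathway switches them on, AXIN2, NKD1 and RNF43 are widely read as gauges of its output in the gut.

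TCF/LEF factors recognise a short core. Only its form CTTTGA, which reads TCAAAG on the other strand, was searched. The 250 bases upstream of the annotated start were read for the genes with an entry in the RefSeq promoter table (GRCh38.p14), which covers 4 of the 7 genes with 6 start sites. Promoters of SP5 and of RNF43 (its outermost start) are shown because both genes fell in SW620 and their upstream sequence differs in this motif, whose matches on either strand are in capitals. The motif was chosen after the sequences had been read.
SP5, chr2:170715087-170715336, plus strand: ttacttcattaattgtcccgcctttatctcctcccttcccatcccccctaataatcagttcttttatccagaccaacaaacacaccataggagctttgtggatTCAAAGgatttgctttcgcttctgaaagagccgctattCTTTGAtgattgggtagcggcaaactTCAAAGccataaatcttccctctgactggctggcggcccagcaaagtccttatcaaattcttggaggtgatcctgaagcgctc
RNF43, chr17:58417535-58417784, minus strand: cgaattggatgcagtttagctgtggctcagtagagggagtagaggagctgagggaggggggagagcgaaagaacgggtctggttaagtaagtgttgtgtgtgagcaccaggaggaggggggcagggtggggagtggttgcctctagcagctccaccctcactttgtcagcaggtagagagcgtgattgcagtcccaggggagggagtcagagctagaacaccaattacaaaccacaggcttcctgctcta
The SP5 window holds 3 matches, 1 as CTTTGA and 2 as TCAAAG, beginning at -147, -109 and -83 relative to the start. Of 35116 windows of the same length, 11.2% held at least 1 match and 23 held 3 or more (0.0655%). The other windows, a pair each for RNF43 and TCF7 and 1 for LEF1, held 0 matches. A match is a string of letters and not a bound site, and its absence says nothing about sequence outside these windows. Nor does it speak to other forms of the core. The variant CTTTGT stands in both sequences shown, that of RNF43 included, and was not counted, so the contrast holds for the searched form only.

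Of the 6 measured genes, 5 fell in SW620 spheroids and 1 rose. LEF1 fell most, 4.37-fold, followed by RNF43 (2.81-fold), CCND1 (2.29-fold), AXIN2 (1.59-fold) and SP5 (1.55-fold), while NKD1 rose 1.91-fold. The calls come from limma's moderated test with Benjamini-Hochberg adjustment over all 14884 genes at a threshold of 0.05. Many genes differed between these lines, since 35.6% of all genes passed that test, 19.5% as lower and 16.0% as higher in SW620. Arrays of the lines did not overlap for any of the 6 genes, which held for 45.7% of all genes. At least 2-fold falls were found for 3 of the 6 genes (LEF1, RNF43 and CCND1) and for 3.76% of all genes, and rises of that size for 0 of the 6 and for 2.32% of all genes. The median of the 6 differences was -0.93 on the log2 scale, against 0.0132 for all genes. Because these genes were chosen with earlier results of these data known, the contrasts with all genes are descriptive and not an independent test. The 29 other measured Wnt/TCF target genes listed below had a median of 0.0777.

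**Figure D1:**
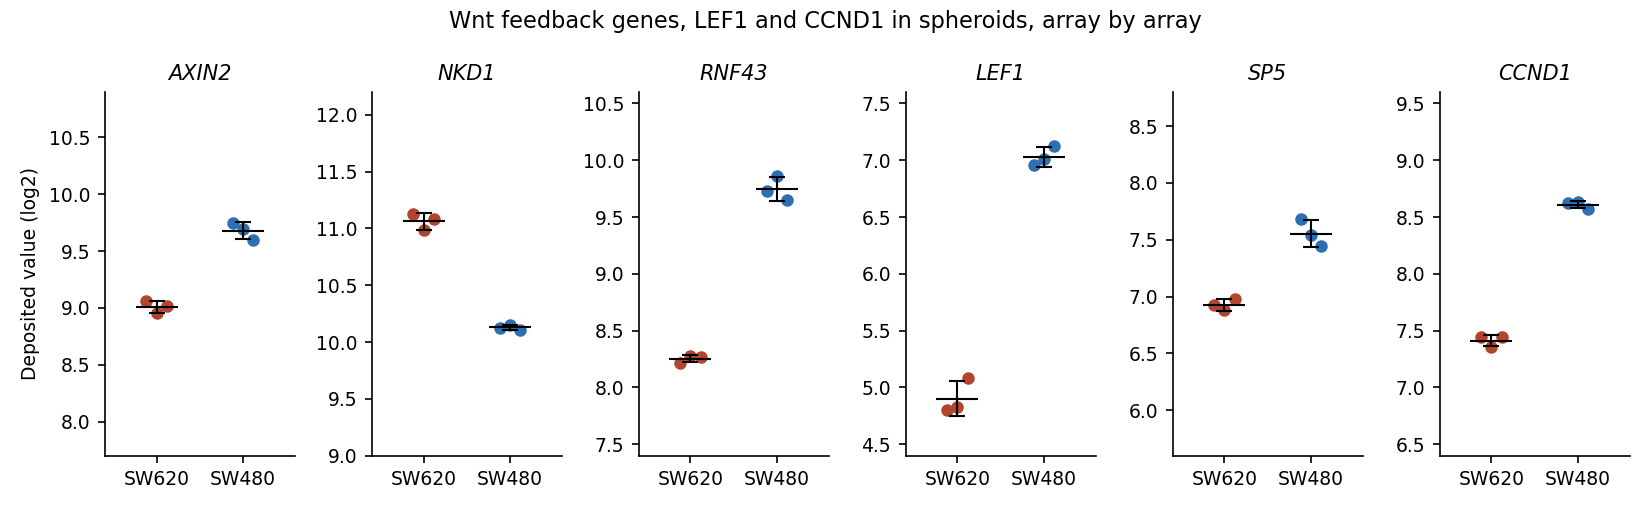
Deposited log2 values of AXIN2, NKD1, RNF43, LEF1, SP5 and CCND1 in the 3 SW620 arrays (left, red) and the 3 SW480 arrays (right, blue), with the mean and SD as bars; every panel spans the same number of log2 units, and levels are not comparable between panels. SW620 arrays lie below SW480 arrays in every panel except that of NKD1, where they lie above.

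AXIN2 encodes the inducible scaffold of the beta-catenin destruction complex and is among the most direct Wnt target genes. Its log2 values were 9.06, 8.95 and 9.01 in SW620 arrays, against 9.75, 9.69 and 9.60 in SW480 arrays. All 3 SW620 arrays lay lower, and the gap between the nearest arrays of the lines (0.54) was wider than the range within either line (0.108 in SW620 and 0.147 in SW480). The means were 9.01 ± 0.0542 in SW620 and 9.68 ± 0.0744 in SW480 (SD, n = 3 each), a log2 difference of -0.67 (standard error 0.0834, limma adjusted p = 3.06e-05). Differences larger than this in either direction were found for 11.5% of all genes.

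AXIN1, the constitutive scaffold of the same complex, went the other way. It averaged 5.97 ± 0.0623 in SW620 and 5.59 ± 0.103 in SW480 (SD, n = 3 each), and rose 1.30-fold (log2 difference 0.38, limma adjusted p = 0.00371). APC, the tumour suppressor that forms the complex with the AXIN proteins, fell 1.27-fold (6.82 ± 0.128 in SW620 and 7.16 ± 0.0445 in SW480, log2 difference -0.34, limma adjusted p = 0.00881). The array reports the amount of APC transcript and not the truncation. CTNNB1, which encodes beta-catenin, has no named feature here and was not analysed.

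NKD1 encodes Naked cuticle 1, which binds Dishevelled and dampens the signal on its way from the receptor. It was the exception among the 6 genes. Its log2 values were 11.13, 10.98 and 11.08 in SW620 arrays, against 10.13, 10.15 and 10.11 in SW480 arrays. The lowest SW620 array exceeded the highest SW480 array by 0.83. The means were 11.06 ± 0.0742 in SW620 and 10.13 ± 0.0227 in SW480 (SD, n = 3 each), a difference of 0.93 (standard error 0.0818, limma adjusted p = 1.19e-06). In both lines its feature was brighter than over 98% of features (99.1% in SW620 and 98.4% in SW480).

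NKD2, its paralogue, rose as well, by 1.36-fold. It had log2 values of 5.77, 5.57 and 5.64 in SW620 arrays, against 5.32, 5.23 and 5.10 in SW480 arrays (difference 0.45, limma adjusted p = 0.00187). Both NKD genes were thus higher in SW620, whereas the AXIN genes went opposite ways.

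RNF43 encodes a transmembrane ubiquitin ligase that removes Frizzled receptors from the cell surface and is itself held back by R-spondins bound to LGR receptors. In SW620 arrays its log2 values were 8.22, 8.28 and 8.27, against 9.73, 9.86 and 9.65 in SW480 arrays. The lines were 1.37 apart at their nearest arrays, and the SW480 arrays were spread more widely. The means were 8.25 ± 0.0329 in SW620 and 9.75 ± 0.106 in SW480 (SD, n = 3 each), with a difference of -1.49 (standard error 0.0859, limma adjusted p = 2.11e-08). Of all 14884 genes it had the 238th lowest difference.

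ZNRF3, the sister ligase with the same receptor targets, was not lower. Its log2 values were 8.64, 8.29 and 8.39 in SW620 arrays, against 8.16, 8.05 and 8.06 in SW480 arrays, a 1.27-fold rise (0.35, standard error 0.0995, limma adjusted p = 0.0148). That call rests on single arrays, since the difference was 0.25 without SW620 replicate 1 (limma adjusted p = 0.0681) and 0.33 without SW480 replicate 2 (limma adjusted p = 0.0519). Of the LGR receptors, which with R-spondins hold both ligases back, LGR5 rose 8.95-fold, LGR6 rose 2.85-fold and LGR4 rose 1.40-fold.

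LEF1 is the only TCF/LEF factor with a named feature, since TCF7, TCF7L1 and TCF7L2 have none here. It encodes an HMG-box protein that carries beta-catenin to DNA and that many colorectal tumours switch on, although normal colon epithelium holds little of it. LEF1 had log2 values of 4.80, 4.83 and 5.08 in SW620 arrays, against 6.96, 7.01 and 7.12 in SW480 arrays. SW620 replicate 3 stood somewhat above the other 2 arrays of its line, and still lay 1.88 below the lowest SW480 array. The means were 4.90 ± 0.154 in SW620 and 7.03 ± 0.0861 in SW480 (SD, n = 3 each), with a difference of -2.13 (standard error 0.0970, limma adjusted p = 2.24e-09). Its difference was the 102nd lowest of all genes. The SW620 mean was above the median feature of the arrays (4.06), a position that does not measure its signal over background.

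SP5 encodes a zinc finger repressor of the SP family that is switched on by Wnt signalling and binds GC-rich promoters. SP5 had log2 values of 6.92, 6.88 and 6.98 in SW620 arrays, against 7.68, 7.54 and 7.44 in SW480 arrays. The lines were 0.47 apart at their nearest arrays, the smallest such gap among the 6 genes. The means were 6.93 ± 0.0499 in SW620 and 7.55 ± 0.119 in SW480 (SD, n = 3 each), with a difference of -0.63 (standard error 0.0886, limma adjusted p = 9.08e-05).

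All 9 SP factors were measured, and 4 of them fell, 0 rose and 5 did not pass. Thus 44.4% passed, whereas over all genes 35.6% passed and 19.5% were lower. Besides SP5, 3 of the other 8 fell. SP4 fell 2.07-fold (6.81 ± 0.0336 in SW620 and 7.86 ± 0.140 in SW480, SD, n = 3 each). SP6 fell 1.73-fold and SP9 1.20-fold. The SP9 call was lost without SW480 replicate 2 (difference -0.24, limma adjusted p = 0.0928), without SW480 replicate 3 (-0.26, limma adjusted p = 0.0673) and without SW620 replicate 2 (-0.22, limma adjusted p = 0.0898). SP1, the ubiquitous founder of the family, differed by 0.24 (limma adjusted p = 0.0695), and by 0.32 without SW480 replicate 2 (limma adjusted p = 0.0338). Differences of SP2 (0.0553), SP3 (-0.0690), SP7 (0.0932) and SP8 (-0.00568) did not pass, and the means of SP7 and SP8 lay below the median feature in both lines.

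CCND1 encodes cyclin D1, which with CDK4 or CDK6 drives cells out of G1 and is a long-studied target of beta-catenin. CCND1 had log2 values of 7.44, 7.35 and 7.44 in SW620 arrays, against 8.63, 8.63 and 8.57 in SW480 arrays. The arrays of each line lay close together and the lines were 1.13 apart at their nearest arrays. The means were 7.41 ± 0.0502 in SW620 and 8.61 ± 0.0325 in SW480 (SD, n = 3 each), with a difference of -1.20 (standard error 0.0802, limma adjusted p = 8.92e-08).

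CCND2, the second D-type cyclin, fell further than CCND1. Its log2 values were 3.77, 4.0 and 3.92 in SW620 arrays, against 8.04, 7.84 and 7.92 in SW480 arrays, a 16.4-fold fall (-4.04, standard error 0.0929, limma adjusted p = 5.49e-12). The SW620 mean (3.90) lay below the median feature, and a further CCND2 feature fell by 1.37 on the log2 scale, so the mean over both features differed by -2.71. CCND3, the third, had log2 values of 5.30, 5.33 and 5.35 in SW620 arrays, against 5.11, 4.95 and 5.18 in SW480 arrays. It rose by 0.25 (limma adjusted p = 0.0401), a call that did not hold when any of 5 arrays was left out: without SW480 replicate 1 the difference was 0.27 (limma adjusted p = 0.0655), without SW480 replicate 2 it was 0.19 (limma adjusted p = 0.180), and without SW620 replicate 1, 2 or 3 it was 0.27, 0.25 and 0.24 (limma adjusted p = 0.0675, 0.0863 and 0.0865).

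**Figure D2:**
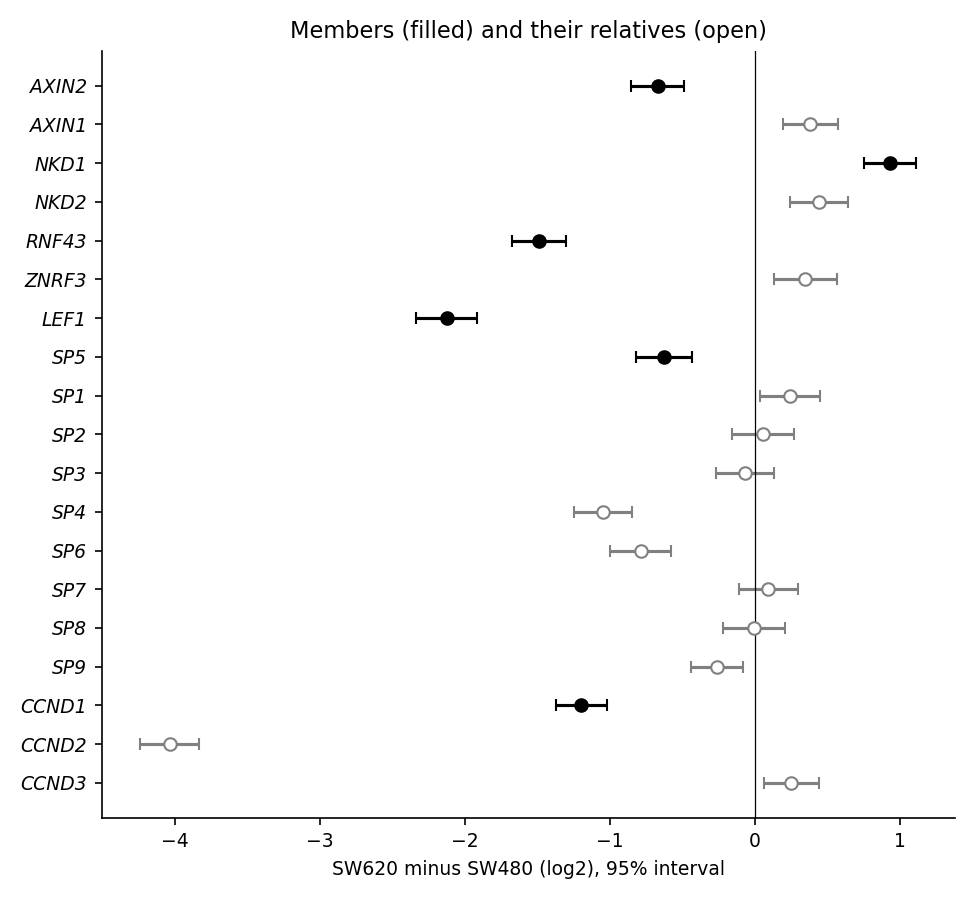
SW620 minus SW480 difference (log2) with its 95% interval from limma for the 6 genes (filled) and their measured paralogues (open), 3 arrays per line. AXIN2 and AXIN1, and RNF43 and ZNRF3, lie on opposite sides of 0, NKD1 and NKD2 lie above it, and CCND2 lies farthest below.

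Ordered by the size of the fall, LEF1 had a 95% interval of -2.34 to -1.92, which did not meet that of RNF43 (-1.68 to -1.31). The intervals of RNF43 and CCND1 (-1.37 to -1.02) overlapped, as did those of AXIN2 (-0.85 to -0.49) and SP5 (-0.82 to -0.44). No test was made between neighbours in this order. The interval of NKD1 was 0.76 to 1.11.

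**Figure D3:**
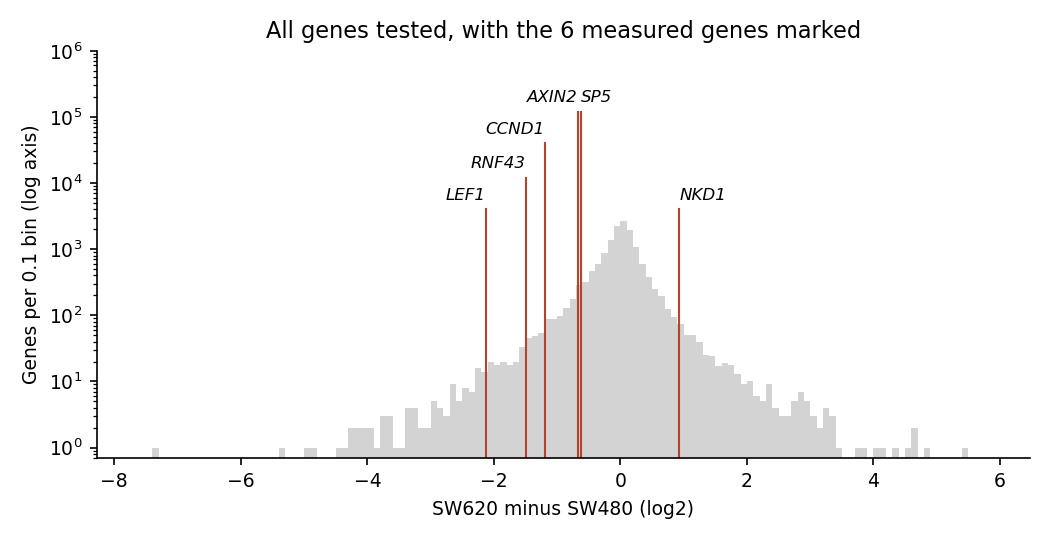
Number of genes (log axis) by SW620 minus SW480 difference (log2, bins of 0.1) for all 14884 genes, with red lines, whose height carries no value, at the 6 measured genes. LEF1, at -2.13, lies far out on the left of the distribution, and AXIN2 and SP5, at -0.67 and -0.63, lie closer to its centre.

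The genes whose gene-centred values over the 6 arrays lay nearest to each of the 6 were read from 11915 other protein-coding genes, with the root mean square distance in log2 units as the measure. They were LTBP1 (0.0324) and TBL1X (0.0364) for AXIN2, MCM9 (0.0219) and ARRDC3 (0.0353) for NKD1, and RIMS2 (0.0469) and LRRC10B (0.0590) for RNF43. For LEF1 they were PSTPIP2 (0.0748) and MAOB (0.0755), for SP5 AGBL5 (0.0234) and MT3 (0.0239), and for CCND1 EMC10 (0.0280) and ANGEL1 (0.0358). The 6 arrays come from 2 lines, so genes with a like difference between the lines lie near each other by this measure. None of these neighbours is another of the 6 genes. Some of them were dim. LTBP1 lay below the median feature (4.06) in both lines (3.34 in SW620 and 3.98 in SW480). The SW620 means of RIMS2 (3.08), LRRC10B (3.75), MAOB (3.38) and MT3 (3.82) lay below it as well.

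The rest of the pathway was read from gene lists, each described by its counts beside the 35.6% of all genes that passed. Among coactivators, corepressors and other partners of TCF/LEF factors, 20 were measured besides LEF1, of which 6 rose, 3 fell and 11 did not pass. NLK, a kinase that phosphorylates TCF/LEF proteins and weakens their hold on DNA, fell 4.83-fold (8.10 ± 0.0251 in SW620 and 10.37 ± 0.0198 in SW480, n = 3 each). CDK8, a Mediator kinase known to help beta-catenin activate transcription in colon cancer, fell 3.69-fold, and TBL1X, a corepressor subunit that can also bind beta-catenin, fell 1.57-fold. BCL9, the adaptor between beta-catenin and the Pygopus proteins, rose 1.61-fold. The median of the list with LEF1 was 0.0761.

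Of 17 measured genes of the destruction complex and the cytoplasmic relay, AXIN2 and NKD1 included, 4 rose, 7 fell and 6 did not pass, with a median of -0.0785. FBXW11, a substrate adaptor of the ubiquitin ligase that receives phosphorylated beta-catenin, fell 1.48-fold. RNF146, the ligase that removes poly-ADP-ribosylated AXIN, rose 1.45-fold. FRAT1, a GSK3-binding protein, fell 1.35-fold, a call lost without SW480 replicate 1 (difference -0.30, limma adjusted p = 0.0930) and without SW620 replicate 1 (-0.31, limma adjusted p = 0.0933), and its means (3.29 in SW620 and 3.72 in SW480) lay below the median feature.

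At the cell surface, 17 of 20 Wnt and R-spondin receptors passed, 8 as higher and 9 as lower, with a median of -0.0715. ROR1, a receptor for Wnt proteins outside the canonical branch, rose 3.98-fold while its relative ROR2 fell 2.19-fold, to a SW620 mean (3.96) below the median feature. Of 20 secreted or surface inhibitors besides RNF43, 4 rose, 6 fell and 10 did not pass. The largest falls were those of DKK4 (167-fold) and APCDD1 (9.34-fold), Wnt antagonists that are themselves Wnt target genes, followed by the Shisa-family protein SHISA2 (2.27-fold) and the membrane glycoprotein TPBG (2.02-fold), whose SW620 means (3.52 and 3.88) lay below the median feature. Among ligands, R-spondins and their secretion factors, 6 of 25 were measured: WNT2, RSPO1, RSPO2, RSPO3, RSPO4 and WLS. WNT2 was the only Wnt ligand among them, so the other Wnt ligands remain unmeasured here. The means of WNT2, RSPO2 and RSPO3 lay below the median feature in both lines. Of the 6, 0 passed limma's test, with 1 at an unadjusted p below 0.05. That gene, WLS, which carries Wnt proteins to the cell surface, differed by 0.20 (unadjusted p = 0.0323, limma adjusted p = 0.0817).

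Of 35 measured Wnt/TCF target genes of the intestine and colon tumours, 13 rose, 15 fell and 7 did not pass, with a median of -0.0928. Without the 6 genes described above, 12 rose and 10 fell of 29, and the median was 0.0777. Falls beyond those of DKK4 and APCDD1 included FGF20, a fibroblast growth factor (13.3-fold), whereas the adhesion molecule NRCAM rose 9.49-fold (7.50 ± 0.0515 in SW620 and 4.25 ± 0.117 in SW480, n = 3 each). Of 14 measured D-type cyclins and G1 partners besides CCND1, CCND2 and CCND3 included, 4 rose and 5 fell. E2F1, the S-phase transcription factor, fell 1.64-fold, while its relative E2F3 rose 1.24-fold. CCNE1, which encodes cyclin E1, fell 1.37-fold, while CCNE2 rose 1.27-fold. CDKN2A, which encodes the CDK4 and CDK6 inhibitor p16, rose 1.40-fold.

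**Figure D4:**
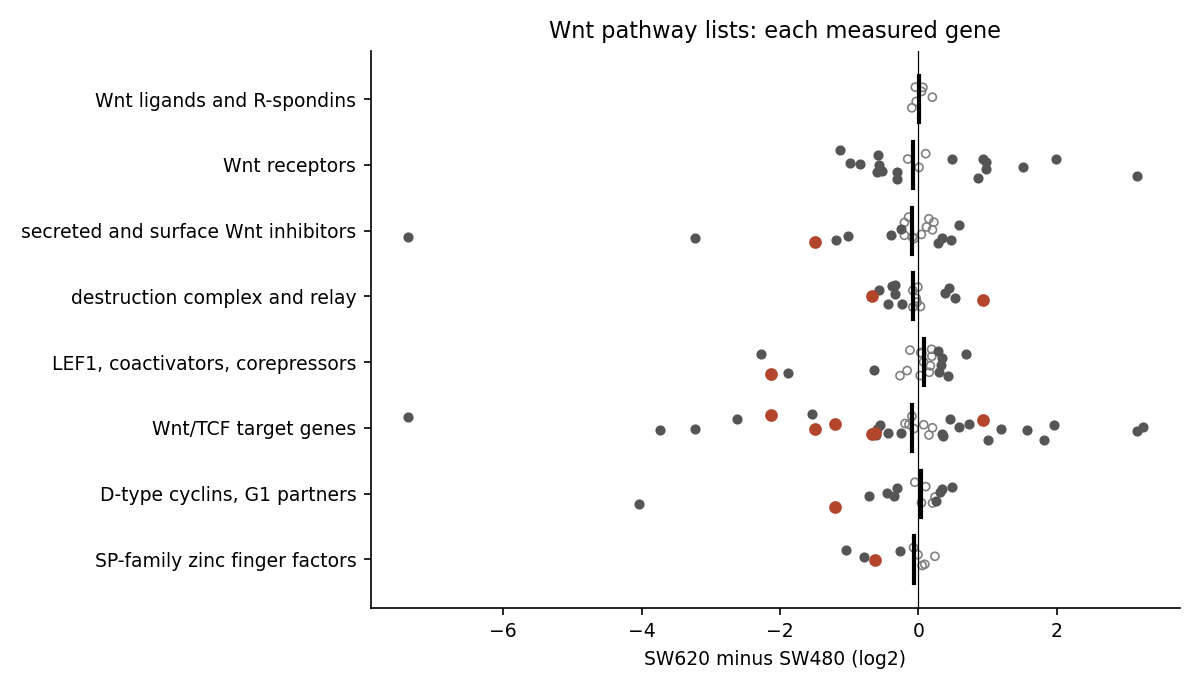
SW620 minus SW480 difference (log2) of every measured gene of each list; filled points passed limma's test, open points did not, red points are AXIN2, NKD1, RNF43, LEF1, SP5 and CCND1, and the bar is the list's median. The medians lie between -0.0928 and 0.0761, close to that of all genes (0.0132), while single genes reach from -7.38 to 3.25.

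The arrays were alike in scale, with medians between 4.04 and 4.07, and correlated across features with r from 0.988 to 0.992 within a line and from 0.963 to 0.965 between lines. Epithelial transcripts included EPCAM (9.61 ± 0.0979 in SW620 and 9.71 ± 0.0796 in SW480, SD, n = 3 each) and KRT18 (11.67 in SW620 and 11.55 in SW480), and 7 of 9 measured epithelial markers in SW620 and 6 of 9 in SW480 exceeded the median feature, with KRT20 and CDX1 below it in both lines. Of these 9 markers 4 rose (CEACAM5 by 2.42, VIL1 by 0.62, KRT19 by 0.51 and KRT8 by 0.40 on the log2 scale), CDX2 fell by 1.54, and the other 4, EPCAM and KRT18 among them, did not pass. Of 5 endothelial markers 0 passed limma's test, with 0 at an unadjusted p below 0.05. Of 5 measured leukocyte markers 3 rose and 1 fell. Their summed level (log2 of summed linear values) was 9.63 to 9.65 in SW620 arrays and 7.52 to 7.60 in SW480 arrays. Most of that sum in SW620 was LCP1, which averaged 9.21 in SW620 and 4.56 in SW480. LYZ averaged 5.72 in SW620 and 3.87 in SW480, and CD68 averaged 6.35 in SW620 and 5.92 in SW480. LAPTM5 averaged 5.84 in SW620 and 6.25 in SW480, while the monocyte marker CD14 was at 3.65 in both lines. Of 3 measured fibroblast markers LUM rose by 3.22 and the others did not pass. The summed level was 8.03 to 8.24 in SW620 arrays and 5.62 to 6.02 in SW480 arrays. Most of that sum in SW620 was LUM, which averaged 7.95 in SW620 and 4.73 in SW480. The part of such markers in the differences above was not tested. In such bulk RNA, fewer cells that hold a transcript and less of it per cell cannot be told apart.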

How the data were processed

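Total RNA from SW620 and SW480 spheroids was labelled as biotinylated sense-strand cDNA and hybridised to Affymetrix arrays, per the labels' protocols. The authors deposited log2 expression values. The submitters' processing notes name Partek and RMA for them, without versions or settings. The base of the logarithm was taken as 2 from the range (1.99 to 13.9), so every fold rests on that reading. Unprocessed intensities and detection calls were not used, and RMA can understate the fold of dim genes.

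Of 53616 features, 16098 carry exactly 1 gene symbol, 0 several and 37518 none here. All 16098 matched a human gene table (GRCh38.p14). The feature with the highest mean stood for a gene, which gave 14884 genes. The difference, SW620 minus SW480, came from a two-sided limma fit (version 3.58.1, R 4.3.3) by lmFit and eBayes without covariates. The prior had 8.39 degrees of freedom. All genes entered the Benjamini-Hochberg adjustment, and an adjusted p under 0.05 counted as passing. The fit was tested on simulated data. Other genes were named by a rule: the paralogues and partners of the 7 genes, and from each list up to 4 genes that passed with the largest difference and no overlap between lines, or the one with the smallest p. The 7 genes, the lists and the tests were chosen with earlier results of these data known. Precision is limited by there being 3 arrays per line. The 16 alternatives were cyclic loess, quantile normalization once more, centring of arrays at their median or 75th percentile feature, filters at the median and the 25th percentile feature, a trended robust variance, means of features, features tested separately, a replicate block, and leaving out each of the 6 arrays.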

Additional observations from a re-analysis of the deposited data

How the results depend on the processing

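AXIN2, NKD1, RNF43, LEF1, SP5 and CCND1 kept their direction and passed limma's test under each of the 16 alternatives. The differences ranged from -0.73 to -0.64 for AXIN2, 0.83 to 0.97 for NKD1, -1.54 to -1.44 for RNF43, -2.22 to -2.07 for LEF1, -0.68 to -0.57 for SP5 and -1.23 to -1.17 for CCND1, and the largest adjusted p was 0.00193, for SP5. The counts of 5 lower and 1 higher were the same throughout. Over all genes, 2905 were lower and 2388 higher. Leaving out 1 array gave 2561 to 2731 lower and 2021 to 2253 higher, and centring on the 75th percentile feature gave 2685 and 2686. No scaling moved the median difference of all genes beyond 0.0402. Same-numbered arrays of the lines did not deviate together over all features (r from -0.0107 to 0.0209). A pairing that touched few features would not show in this measure. With the replicate number as a block, the difference of LEF1 was again -2.13 (adjusted p = 2.26e-09), 2862 genes were lower and 2353 higher, and among named genes only the CCND3 call was lost (adjusted p = 0.0532).

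Of 35 other named genes, 25 kept their call in every alternative and 5 never gained one in those that tested them (14 for SP8 and 15 for SP7, which filters on dim features removed, and 16 for the others). CCND3 lost its call in 8 of 16, SP9 in 5 of 16, ZNRF3 in 3 of 16 and FRAT1 in 3 of 14, and SP1 gained one in 4 of 16; the cause was not tested. SP3 and SP8, which did not pass, turned sign: leaving out single arrays, SP3 ranged from -0.12 (without SW480 replicate 3) to 0.0194 (without SW480 replicate 2), and SP8 from -0.0967 (without SW480 replicate 1) to 0.0743 (without SW480 replicate 3), and SP8 was at 0.0213 with centring on the 75th percentile feature. Signal over background could not be examined, since detection calls were not used.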
